A study of Mus musculus with 12 samples.

Results

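The change from the middle to the distal segment of the mouse small intestine was followed on 8 of the 12 microarrays of the series, the 4 middle and the 4 distal arrays, paired by pool of mice. The mice were male C57BL/6J animals, and each small intestine had been cut into 3 equal parts. The middle stretch of each part was kept for histology, and mucosa and submucosa were scraped off the rest. Mice of 4 months (young) or 21 months (old) ate a low-fat diet with 10% of energy from fat or a high-fat diet with 45% of energy from fat, both based on palm oil, for 2 weeks after a low-fat run-in that all of them shared, and they were killed in the fed state. The 4 pools are called OLF (old, low fat), OHF (old, high fat), YLF (young, low fat) and YHF (young, high fat). An old pool held equal amounts of RNA from 8 mice and a young pool from 6, with 1 array for each pool and segment. The middle and distal array of a pool therefore hold RNA of the same mice, and no array shows the spread between mice.

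The values are log2 intensities of an Affymetrix Mouse Gene 1.0 ST array. Of 19938 genes with a probe set that carried exactly 1 gene symbol, 11928 were tested, those with an intensity over 50 on at least 1 of the 12 arrays, less 20 acinar genes of the pancreas. "Step" below is the distal minus the middle log2 value within a pool, and 1 unit is a 2-fold difference. A gene was called when limma, with the pool as a block, gave a Benjamini-Hochberg adjusted p under 0.05 over all genes tested. Values of single arrays are given in the order OLF, OHF, YLF and YHF, errors are standard errors (SE) of the step, and n is 4 pools.

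The small intestine is divided along its length into duodenum, jejunum and ileum, with no visible border between the jejunum and the ileum. The jejunal epithelium takes up most of the sugar, fat and folate of a meal, and the enterocytes of the terminal ileum recover bile acids and cobalamin and release the hormone Fgf15, which lowers bile acid synthesis in the liver. The transcription factor Gata4 is known to hold jejunal genes on and ileal genes off. The ileum also carries more lymphoid follicles, more goblet cells and more bacteria than the jejunum.

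From the middle to the distal segment 1321 genes rose (11.1% of those tested) and 1862 fell (15.6%). The median step over all genes was 0.01. A mean rise above 2-fold was found in 87 of the called genes and a mean fall of that size in 169. The 4 distal arrays lay wholly above the 4 middle arrays in 79 of the first set and wholly below in 161 of the second. With no test, 42 genes (0.352%) exceeded a 2-fold rise in every pool taken by itself and 87 (0.729%) a 2-fold fall. With 1 pool left out, which also leaves 1 pair fewer, 517 genes rose and 941 fell without OLF, 761 and 1279 without YLF and 694 and 1217 without YHF, but 1786 and 2063 without OHF. As shares of all genes tested, 4.33%, 6.38% and 5.82% rose without OLF, YLF and YHF, and 15% without OHF. In 17 of the 87 genes all middle arrays, and in 16 of the 169 all distal arrays, were at or under the intensity of 50 (5.64 on the log2 scale), so that these passed the filter through other arrays and the size of their step is not firm.

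The segments carried the markers of their labels. The ileal genes Slc10a2, Fabp6 and Fgf15 lay above every middle array on every distal array, and the jejunal genes Lct, Fabp1 and Gata4 lay below. The enterocyte gene Vil1 (villin, of the brush border core) was between 12.81 and 12.97 on all 8 arrays, with a step of −0.08 ± 0.06 (adjusted p = 0.372, limma). Fabp2, also an enterocyte gene, had a step of 0.07 ± 0.06 (adjusted p = 0.429, limma). The enterocyte gene Alpi was not level, with 11.93 to 12.21 on the middle and 11.36 to 11.73 on the distal arrays. Its step was −0.56 ± 0.07 (adjusted p = 0.00155, limma). Stomach markers were under the intensity of 50 on all 8 arrays (Gkn1, Gkn2, Muc5ac and Atp4a), and Hoxb13, a marker of the large intestine, was too. Of 12 genes of the stomach and duodenal glands that passed the filter, 1 fell, against 15.6% of all genes. Car1, an erythrocyte and colon carbonic anhydrase, was under the intensity of 50 on the middle arrays and the YHF distal array. On the other distal arrays it was over that intensity, as described below. Acinar genes of the pancreas had summed intensities of 3637 to 5069 on the middle and 2493 to 3321 on the distal arrays, against 43822 to 101188 on the proximal arrays. The OHF pool stood apart in several lists of non-epithelial and crypt genes, which is given beside those lists.

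Genes of ileal bile acid handling held 3 of the largest rises, those of Slc10a2, Fabp6 and Fgf15. Of 12 tested, 7 rose and 4 fell, with a median step of 0.55. Slc10a2, the sodium-dependent transporter that takes bile acids up from the lumen, measured 6.84, 7.79, 7.48 and 9.94 on the middle arrays and 11.65, 11.65, 12.01 and 11.85 on the distal arrays. The distal values lay close together, while the middle array of YHF was far above the other middle arrays. The step averaged 3.78 ± 0.43, or 13.7-fold (adjusted p = 0.00132, limma).

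Fabp6, the cytosolic bile acid carrier of ileal enterocytes, measured 8.84, 7.58, 9.49 and 11.31 on the middle arrays and 13.06, 13.08, 13.06 and 13.09 on the distal arrays. Again the middle array of YHF was the highest and the distal arrays were nearly level, and the step averaged 3.77 ± 0.51 (13.6-fold, adjusted p = 0.00258). Fgf15 measured 8.63, 7.03, 7.83 and 7.18 on the middle arrays and 10.95, 10.72, 10.61 and 10.11 on the distal arrays. Here OLF, not YHF, had the highest middle value, and the step was 2.93 ± 0.19 (7.63-fold, adjusted p = 0.000171). The bile acid receptor Nr1h4 rose by 1.22 ± 0.08, and the exporter subunits Slc51a and Slc51b, which pass bile acids to the blood, by 1.19 ± 0.07 and 0.86 ± 0.08. Among the members that fell were Cyp27a1, a mitochondrial sterol hydroxylase (−1.15 ± 0.11), and the repressor Nr0b2 (−0.76 ± 0.16).

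**Figure D1:**
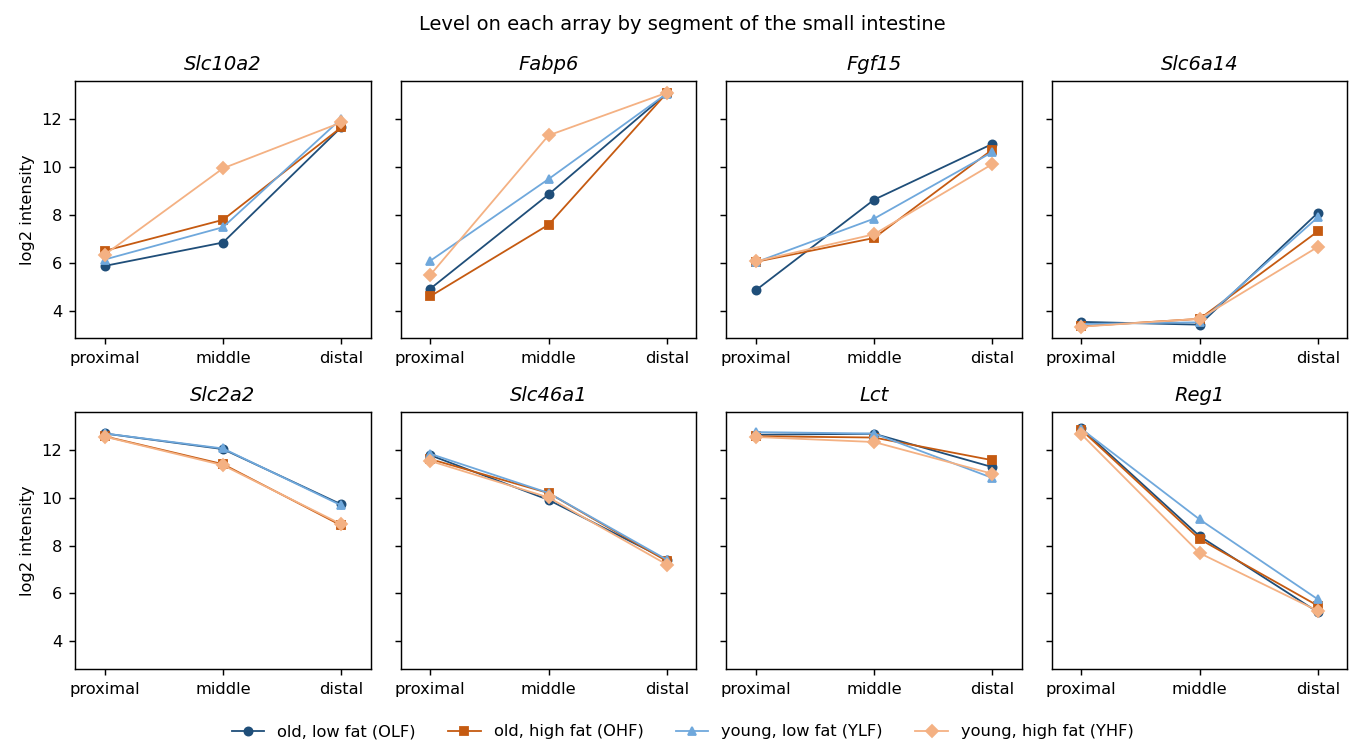
Log2 intensity (y axis) of 8 genes on the proximal, middle and distal array (x axis) of each pool, 1 line per pool and no error bars, since each point is 1 array. Slc10a2 and Fabp6 of the YHF pool are already at 9.94 and 11.31 in the middle segment, Slc6a14 stays at 3.41 to 3.66 there in all pools, and Lct falls after the middle segment.

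Other genes with large rises belong to amino acid uptake, sulphur and lipid metabolism and the oxidant response to microbes. Slc6a14, a broad amino acid transporter, measured 3.41, 3.65, 3.51 and 3.66 on the middle arrays and 8.08, 7.31, 7.89 and 6.66 on the distal arrays. Its middle values were as low as its proximal ones, from 3.33 to 3.53, and all of them were under the intensity of 50, so that its step of 3.93 ± 0.25 (adjusted p = 0.000149) rests on a middle level that is not firm. Suox, the mitochondrial sulphite oxidase, measured 6.36, 6.27, 6.41 and 7.77 on the middle arrays and 9.98, 9.61, 10.09 and 9.93 on the distal arrays, and the YHF middle array stood above the other three. The step was 3.20 ± 0.24 (adjusted p = 0.000261).

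The transcript 1810065E05Rik rose by 3.24 ± 0.29. Scd2, a stearoyl-CoA desaturase, rose by 2.24 ± 0.14, Tmigd1, an epithelial adhesion molecule, by 2.24 ± 0.19, and Mboat1, a lysophospholipid acyltransferase, by 2.15 ± 0.18. The sulphate transporter Slc13a1 rose by 2.29 ± 0.17, but it had fallen before: its proximal arrays measured 12.26, 11.98, 12.35 and 11.94 and its middle arrays 9.51, 8.72, 10.09 and 10.38. Of the 87 genes over 2-fold higher, Slc13a1 and Slc40a1 were the 2 whose middle mean was also over 2-fold under the proximal mean. In 28 of the 87 the mean had already risen over 2-fold from the proximal to the middle segment, and in 57 these means lay within 2-fold. Of the 169 genes over 2-fold lower, 23 had already fallen over 2-fold by the middle segment and 146 lay within 2-fold there.

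Genes of sugar digestion and uptake fell as a group: 18 of 21 tested fell and 1 rose, with a median step of −1.01. The 1 that rose was not called when OLF, YLF or YHF was left out. Slc2a2 (Glut2), the glucose and fructose transporter of the basolateral membrane, measured 12.03, 11.40, 12.05 and 11.35 on the middle arrays and 9.72, 8.84, 9.68 and 8.89 on the distal arrays. The low-fat pools were above the high-fat pools in both segments, and the step was close to equal in all pools, −2.43 ± 0.07 (adjusted p = 1.29e-05, limma). Slc2a7 (Glut7) measured 9.31, 8.81, 9.25 and 8.87 on the middle arrays and 6.82, 6.57, 7.05 and 6.88 on the distal arrays, a step of −2.23 ± 0.09. Lct, the lactase of the brush border, measured 12.67, 12.51, 12.68 and 12.32 on the middle arrays and from 10.82 in YLF to 11.56 in OHF on the distal arrays, without overlap (−1.38 ± 0.13). Fbp1 and Slc5a4a, an enzyme of gluconeogenesis and a sodium-coupled sugar transporter family member, had steps of −1.95 and −1.62.

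Of 33 genes of fat uptake and chylomicron assembly, 21 fell and 1 rose, with a median step of −0.38, and the 1 that rose was not called without OLF, YLF or YHF. Cd36, the fatty acid translocase, measured 10.30, 10.67, 10.03 and 10.30 on the middle arrays and 8.69, 8.99, 8.35 and 8.68 on the distal arrays. Its step was close to equal in the 4 pools, −1.65 ± 0.06 (adjusted p = 3.63e-05). Fabp1, the fatty acid binding protein shared with the liver, measured 12.93, 13.26, 12.84 and 13.20 on the middle arrays and 11.43, 12.46, 10.82 and 12.05 on the distal arrays, a step of −1.37 ± 0.18. Both high-fat pools had the higher distal values, and the difference of the step between the diets was 0.79 ± 0.13 (adjusted p = 0.0540). Apoc3, an apolipoprotein, fell by 1.26 ± 0.14, and the acyl-CoA synthetase Slc27a2 had a step of −1.25 ± 0.08.

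Fatty acid oxidation and ketogenesis held 19 genes that fell among 33 tested, with a median step of −0.29, and 10 to 12 members fell when OLF, YLF or YHF was left out. Pdk4, the kinase that holds back glucose oxidation, fell by 1.20 ± 0.12. Subunits of oxidative phosphorylation fell more evenly: 32 of 35 fell, with a median of −0.35 and a largest fall of 0.60 for Sdhd, a subunit of complex II. That count was 11 without OLF, 16 without YHF and 21 without YLF, and 10 when the 8 arrays were quantile-normalized again over the genes tested, where the median was −0.20. The same normalization left 12 of the fatty acid oxidation genes lower, and 3 were higher.

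Single genes outside these lists fell further. Slc46a1, the proton-coupled folate transporter, measured 9.91, 10.19, 10.20 and 10.01 on the middle arrays and 7.41, 7.35, 7.41 and 7.21 on the distal arrays, −2.73 ± 0.08 (6.64-fold lower, adjusted p = 1.29e-05). Casp6, an effector caspase, measured 10.79, 10.95, 10.66 and 10.72 on the middle arrays and 8.04, 7.92, 7.90 and 7.98 on the distal arrays, −2.82 ± 0.07. Its middle arrays lay near the proximal ones, which measured 10.95 to 11.02, so nearly all of its fall lay between the middle and the distal segment. Bbox1, the last enzyme of carnitine synthesis, measured 7.83, 10.06, 7.52 and 9.56 on the middle arrays and 5.18, 6.16, 4.69 and 6.18 on the distal arrays, a step of −3.19 ± 0.19 (adjusted p = 0.000125), with OLF and YLF under the intensity of 50 in the distal segment. Its high-fat pools were higher than its low-fat pools in both segments, and the difference of the step between the diets had an adjusted p of 0.0834.

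Xenobiotic enzymes fell in 31 of 47 tested genes and rose in 4, or 2 without OLF, with a median of −0.56. The steps of the cytochromes P450 Cyp2b10 and Cyp2c66 were −2.17 ± 0.14 and −2.14 ± 0.18, and those of the alcohol dehydrogenases Adh1 and Adh6a were −2.17 ± 0.15 and −1.86 ± 0.07. Another alcohol dehydrogenase, Adh4, measured 8.17, 9.80, 7.88 and 9.07 on the middle arrays and 6.53, 6.74, 5.76 and 5.99 on the distal arrays (−2.48 ± 0.24). The sulphotransferase Sult6b2, the glutathione transferase Gstm6 and the carboxylesterase Ces2g had steps of −2.53 ± 0.27, −2.41 ± 0.11 and −2.23 ± 0.10. The remaining large falls were Mcoln3, a cation channel of endosomes and lysosomes (−2.45 ± 0.24), Enpp3, an ectonucleotidase (−2.26 ± 0.18), and Plekhf1, an endosomal adaptor (−2.16 ± 0.12).

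Cholesterol synthesis moved the other way, and 16 of 20 tested genes rose with a median of 0.53, while none fell at an adjusted or unadjusted p under 0.05 (limma). Sqle, the squalene epoxidase, measured 8.11, 8.40, 8.05 and 8.63 on the middle arrays and 9.57, 9.78, 9.66 and 9.69 on the distal arrays, a step of 1.38 ± 0.10 (adjusted p = 0.00021). Fdft1, Cyp51 and Hmgcs1, enzymes before and after squalene, rose by 1.22, 1.03 and 0.77. The smallest step of Sqle was in YHF, whose middle array was the highest.

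Regional transcription factors divided, with 11 of 34 higher and 9 lower, and the number higher was 3, 6 and 7 without OLF, YLF and YHF. Gata4 measured 9.02, 9.07, 9.04 and 9.05 on the middle arrays and 7.97, 8.41, 7.80 and 8.01 on the distal arrays, a step of −1.0 ± 0.10 (2.00-fold lower, adjusted p = 0.000766). Onecut2, Pparg, a lipid-sensing nuclear receptor, and Creb3l3, a liver and intestine factor of lipid metabolism, had steps of −0.89 ± 0.09, −0.82 ± 0.12 and −0.69 ± 0.06. Hox genes, which set position along the body axis, were tested in 9 of 34 measured members, and 6 of the 9 rose. In 5 of the 9 all middle arrays were at or under the intensity of 50, so that they passed the filter through other arrays, and the count says nothing of the members that were not tested. Hoxb9 measured 5.20, 5.21, 5.10 and 5.51 on the middle arrays and 6.72, 6.94, 6.85 and 6.82 on the distal arrays (1.58 ± 0.09). Its middle arrays lay at the level of the proximal ones except in YHF, where the middle array was 20.4% of the way from the proximal to the distal array. All proximal and middle arrays of Hoxb9 were under the intensity of 50, so the size of its step and this position are not firm. Hoxb5, Hoxb6 and Hoxc8 rose by 1.31, 1.28 and 0.70.

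The stretch before the start of 6 regional genes is printed here, because these genes carry the contrast of the segments and because motifs of Gata4 and of the intestinal CDX factors can be read in it. Each is the 250 bases upstream of the RefSeq start site on GRCm38.p6, 5′ to 3′ on the strand of the gene. Capitals mark the GATA letters AGATAA or TGATAA and the CDX letters TTTATG, searched on both strands. The 2 distal genes are Fabp6 (chr11:43601563-43601812, minus strand) and Slc10a2 (chr8:5105288-5105537, minus strand). The 4 genes that fell are Lct (chr1:128328319-128328568, minus strand), Slc2a2 (chr3:28697653-28697902, plus strand), Gip (chr11:96024295-96024544, plus strand) and Reg1 (chr6:78425733-78425982, plus strand).
Fabp6: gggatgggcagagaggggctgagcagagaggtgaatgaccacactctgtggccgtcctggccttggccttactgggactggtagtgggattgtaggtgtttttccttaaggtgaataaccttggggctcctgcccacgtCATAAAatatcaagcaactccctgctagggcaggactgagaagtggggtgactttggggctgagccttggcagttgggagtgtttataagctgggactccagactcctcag
Slc10a2: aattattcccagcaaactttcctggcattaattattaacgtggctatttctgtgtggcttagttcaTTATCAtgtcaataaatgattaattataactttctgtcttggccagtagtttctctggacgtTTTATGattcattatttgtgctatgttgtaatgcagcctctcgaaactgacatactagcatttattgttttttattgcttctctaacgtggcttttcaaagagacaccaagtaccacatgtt
Lct: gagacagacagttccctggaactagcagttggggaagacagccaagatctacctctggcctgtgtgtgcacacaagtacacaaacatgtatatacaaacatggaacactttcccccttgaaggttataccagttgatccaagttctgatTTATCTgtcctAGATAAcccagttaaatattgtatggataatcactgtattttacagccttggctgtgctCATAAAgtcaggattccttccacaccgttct
Slc2a2: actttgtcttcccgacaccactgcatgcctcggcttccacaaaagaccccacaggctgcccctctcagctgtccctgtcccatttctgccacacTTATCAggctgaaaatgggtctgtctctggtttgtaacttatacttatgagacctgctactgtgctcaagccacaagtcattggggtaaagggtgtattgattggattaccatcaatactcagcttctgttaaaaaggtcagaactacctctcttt
Gip: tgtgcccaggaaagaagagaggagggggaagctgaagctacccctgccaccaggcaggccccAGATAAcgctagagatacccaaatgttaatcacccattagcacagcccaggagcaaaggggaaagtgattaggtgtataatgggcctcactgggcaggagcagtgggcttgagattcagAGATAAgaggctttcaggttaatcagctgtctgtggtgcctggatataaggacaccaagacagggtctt
Reg1: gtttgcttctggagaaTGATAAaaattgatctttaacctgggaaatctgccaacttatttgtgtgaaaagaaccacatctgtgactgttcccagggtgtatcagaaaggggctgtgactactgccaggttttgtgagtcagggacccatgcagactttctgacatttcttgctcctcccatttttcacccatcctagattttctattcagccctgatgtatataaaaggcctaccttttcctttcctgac

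Lct held a GATA match at −101 and at −90 and Gip at −188 and −69 from the start, while Slc2a2 held 1 at −156 and Reg1 1 at −234. Slc10a2 held 1 GATA match at −184 and Fabp6 held none, and both held a CDX match, at −122 and −111, as did Lct at −31. Over the called genes, GATA letters stood in 42 of 182 windows of genes over 2-fold lower (23.1%) and in 15 of 76 windows of genes over 2-fold higher (19.7%), against 9.81% of 12098 windows of the genes tested and 16.6% of all 32851 windows of the table. CDX letters stood in 10.4% and 11.8% of the windows of the lower and higher genes and in 6.3% and 10.8% of those of the tested genes and of the table. The core TATA letters, TATAAA, were in 21.4%, 9.21%, 6.99% and 12.4% in the same order. The HNF4 letters CAAAGTCCA were in 5 of the 182 windows of lower genes (2.75%) and in none of the 76 of higher genes, against 0.422% of tested and 0.384% of all windows. The sterol regulatory letters TCACNCCAC were in 1 of 19 windows of the cholesterol synthesis genes (5.26%) and in 1.05% of all windows. Windows overlap where a gene has several starts, 9538 of the 11928 tested genes had a window, and a match of letters is not a bound site.

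Hormone genes of enteroendocrine cells fell in 9 of 24 tested members and rose in 1, and 5 fell without OLF. Gip, the incretin of upper intestinal K cells, measured 10.45, 10.13, 9.99 and 9.62 on the middle arrays and 7.85, 8.07, 8.00 and 8.19 on the distal arrays, −2.02 ± 0.17 (4.07-fold lower, adjusted p = 0.000365). OLF was highest and YHF lowest on the middle arrays, and these pools changed places on the distal arrays, and the step was −2.61 in OLF and −1.43 in YHF. Pyy, the hormone of lower intestinal L cells, was the member that rose: it measured 7.78, 8.33, 8.14 and 8.32 on the middle arrays and 9.07, 9.41, 9.43 and 9.56 on the distal arrays (1.22 ± 0.07). The hormone Cck and Trpa1, a channel of enterochromaffin cells, had steps of −1.41 ± 0.10 and −1.12 ± 0.17. In bulk scrapings fewer cells of a type and less RNA per cell cannot be told apart, here and in the lists of other cell types.

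Genes that respond to microbes rose in 13 of 27 tested members and fell in 4. Reg1, a secreted lectin, fell: it measured 8.39, 8.27, 9.09 and 7.69 on the middle arrays and 5.22, 5.49, 5.76 and 5.27 on the distal arrays, −2.92 ± 0.15 (adjusted p = 8.57e-05), with the distal arrays other than YLF under the intensity of 50. Its proximal arrays measured 12.65 to 12.89, and it was not on the list of acinar genes removed. The part of pancreas RNA in its level was not tested. Duox2, which makes hydrogen peroxide at the epithelial surface, measured 6.75, 6.48, 7.54 and 8.17 on the middle arrays and 9.73, 9.40, 9.38 and 9.13 on the distal arrays, a step of 2.17 ± 0.32, and its partner Duoxa2 rose by 2.26 ± 0.30. YHF had both the highest middle and the lowest distal value of Duox2. Saa1, an acute phase protein, measured 3.04, 3.21, 4.06 and 5.40 on the middle arrays and 5.54, 4.65, 7.91 and 6.93 on the distal arrays (2.33 ± 0.37, adjusted p = 0.00493), and the 2 segments overlapped between pools, since the young pools were higher in both. Of these, all middle arrays and the distal arrays of the old pools were under the intensity of 50.

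Goblet cell and mucus genes rose in 12 of 19 and fell in 1, with a median of 0.39, and 7 rose without OLF. The mucin Muc2 rose by 0.69 ± 0.14 (adjusted p = 0.0522 without OLF), Creb3l1, a secretory cell factor, by 0.59 ± 0.11 and Sytl2, a vesicle protein, by 0.57 ± 0.09, while the sialyltransferase St3gal6 fell by 0.82 ± 0.07. Crypt stem cell and Wnt target genes rose in 10 of 20, none falling at an unadjusted p under 0.05 (limma), with 5 or 6 without OLF, YLF or YHF and 15 without OHF. Axin2, a Wnt feedback gene, rose by 0.63 ± 0.09, the chloride cotransporter gene Slc12a2 by 0.55 ± 0.09, the stem cell receptor Lgr5 by 0.47 ± 0.08 and Ephb3 by 0.46 ± 0.08.

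More Paneth cell and cell cycle genes were called without the OHF pool than with it. Of 12 Paneth genes tested, 4 rose, but 10 rose without OHF (15% of all genes did so there) and none without any 1 of the other pools (4.33% to 6.38% of all genes). Their median step was 0.36, −0.14, 0.54 and 0.29 in OLF, OHF, YLF and YHF. Pla2g2a, an antibacterial phospholipase, rose by 0.50 ± 0.13 and the protease Mmp7 by 0.42 ± 0.12, and neither was called without OLF, YLF or YHF, while the step of Reg4 was −0.59 ± 0.20 (adjusted p = 0.0731). Of 27 cell cycle genes 4 rose, which is near the share of all genes (11.1%), 15 without OHF and 2 without any 1 of the other pools, and the medians of the pools were 0.32, −0.16, 0.39 and 0.18. Ccnd1 (cyclin D1) rose by 0.88 ± 0.07 and Mki67 by 0.41 ± 0.07.

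Smooth muscle genes rose in 17 of 19, none falling at an unadjusted p under 0.05 (limma), with a median of 0.73. Their summed intensity was 3088 to 4316 on the middle and 3894 to 9026 on the distal arrays. Myh11, smooth muscle myosin, measured 7.58, 7.68, 8.45 and 8.37 on the middle arrays and 8.97, 8.23, 10.05 and 9.64 on the distal arrays, a step of 1.20 ± 0.16 (adjusted p = 0.00238). The old pools were below the young ones in both segments, and the distal array of OHF lay within the range of the middle arrays. The list medians of the pools were 0.75, 0.35, 1.13 and 0.85. Fibroblast and matrix genes rose in 4 of 26, near the share of all genes (11.1%), and fell in 1. Without OHF 11 were higher (15% of all genes rose there), and 1 was higher without any 1 of the other pools. The median of this list was −0.24 in OHF and 0.11 to 0.38 in the other pools. Of 7 genes of enteric nerves, glia and pacemaker cells 5 rose, or 2 without OLF and 3 without YLF, and none fell at an unadjusted p under 0.05 (limma). Of 15 endothelial genes 1 rose and 1 fell, against 11.1% and 15.6% of all genes. The part of smooth muscle and stromal RNA in the other steps was not tested.

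B cell and follicle genes rose in 14 of 18, with 1 falling at an unadjusted but none at an adjusted p under 0.05 (limma), and a median of 0.41. The count was 3 without OLF, 5 without YHF and 6 without YLF, and was 15 without OHF. Ms4a1 (CD20) measured 5.58, 5.30, 5.81 and 5.57 on the middle arrays and 6.90, 5.51, 6.70 and 7.28 on the distal arrays, a step of 1.03 ± 0.22 (adjusted p = 0.0141). Its OHF distal array stayed among the middle arrays, and without OLF it was not called (adjusted p = 0.0653). Of the middle arrays of Ms4a1 YLF alone was over the intensity of 50, and the OHF distal array was under it. The size of its step is therefore not firm. Cr2, a complement receptor of B cells and follicular dendritic cells, rose by 1.05 ± 0.16 and the follicle chemokine Cxcl13 by 0.71 ± 0.13. In the epithelium over follicles 3 of 11 genes rose, or 5 without OHF, among them Marcksl1 (1.04 ± 0.11) and Pglyrp1, a peptidoglycan-binding protein (1.03 ± 0.09). Summed intensities of the 21 measured B cell genes were 1163 to 1324 on the middle and 1206 to 1886 on the distal arrays.

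T cell and intraepithelial lymphocyte genes fell in 12 of 24 and rose in 2, with a median of −0.24, and 8 fell without OLF. The cytotoxic genes Klrd1, Gzma and Gzmb had steps of −0.76, −0.73 and −0.73, and Gzmb was not called without the pool as a block (adjusted p = 0.0706). Macrophage and other myeloid genes fell in 8 of 19 and rose in 1, and their median was −0.72 in OHF and −0.29 to −0.20 in the other pools. Interferon-responsive genes fell in 14 of 29 and rose in 1, and 8 fell without OLF. Usp18 and Ifit1 had steps of −1.04 ± 0.08 and −0.73 ± 0.13. Of 9 MHC class II genes, 1 rose, H2-Ob of B cells (0.65 ± 0.16, not called without OLF, YLF or YHF), and of 12 plasma cell genes 2 rose, Sdc1 (0.67 ± 0.07) and Txndc5 (0.29 ± 0.07), while Igha had a step of −0.91 ± 0.31 (adjusted p = 0.0672). Both of these counts were near the share of all genes that rose (11.1%).

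Transporters of amino acids and minerals, peptidases and junction genes moved in both directions. Amino acid and peptide transporters rose in 6 and fell in 9 of 23, and 3 rose without OLF. The glutamate transporter Slc1a1 rose by 1.31 ± 0.09, and Slc25a45 and Slc7a8 had steps of −1.14 and −1.11. Brush border peptidases rose in 6 and fell in 5 of 14, or 3 and 2 without OLF and 3 and 3 without YLF, with Mep1a at 1.09 ± 0.07, Mme at −1.06 ± 0.07 and Ace at −1.04 ± 0.11. Genes of mineral and vitamin uptake rose in 10 and fell in 8 of 30, and 6 rose without OLF. The magnesium channel Trpm6 rose by 2.15 ± 0.13 and the iron exporter Slc40a1 by 1.80 ± 0.16, while the ascorbate transporter Slc23a1 fell by 1.92 ± 0.14.

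Of 10 cobalamin genes 2 rose, the receptor Cubn (0.48 ± 0.14, adjusted p = 0.0407) and the exporter Abcc1 (0.45 ± 0.07), and 1 fell, Mmut (−0.26 ± 0.08). These counts were near the shares of all genes, of which 11.1% rose and 15.6% fell. Cubn was not called without OLF or YHF, and Mmut not without any 1 of the pools. Ion and water transport genes rose in 8 and fell in 8 of 28, and 5 rose without YHF. The carbonic anhydrases Car2 and Car12 moved in opposite directions, −1.82 ± 0.14 and 1.80 ± 0.08, and Slc5a8, a sodium-coupled monocarboxylate transporter, rose by 1.23 ± 0.09. Among 18 tight junction genes 5 rose and 1 fell, and 2 rose without OLF or YHF and 3 without YLF. Cldn2, which forms a cation and water pore, measured 6.70, 6.73, 6.76 and 7.16 on the middle arrays and 8.49, 8.06, 8.65 and 8.66 on the distal arrays (1.63 ± 0.10), Cldn8 rose by 1.36 ± 0.13 and Cldn15 fell by 0.68 ± 0.07.

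**Figure D2:**
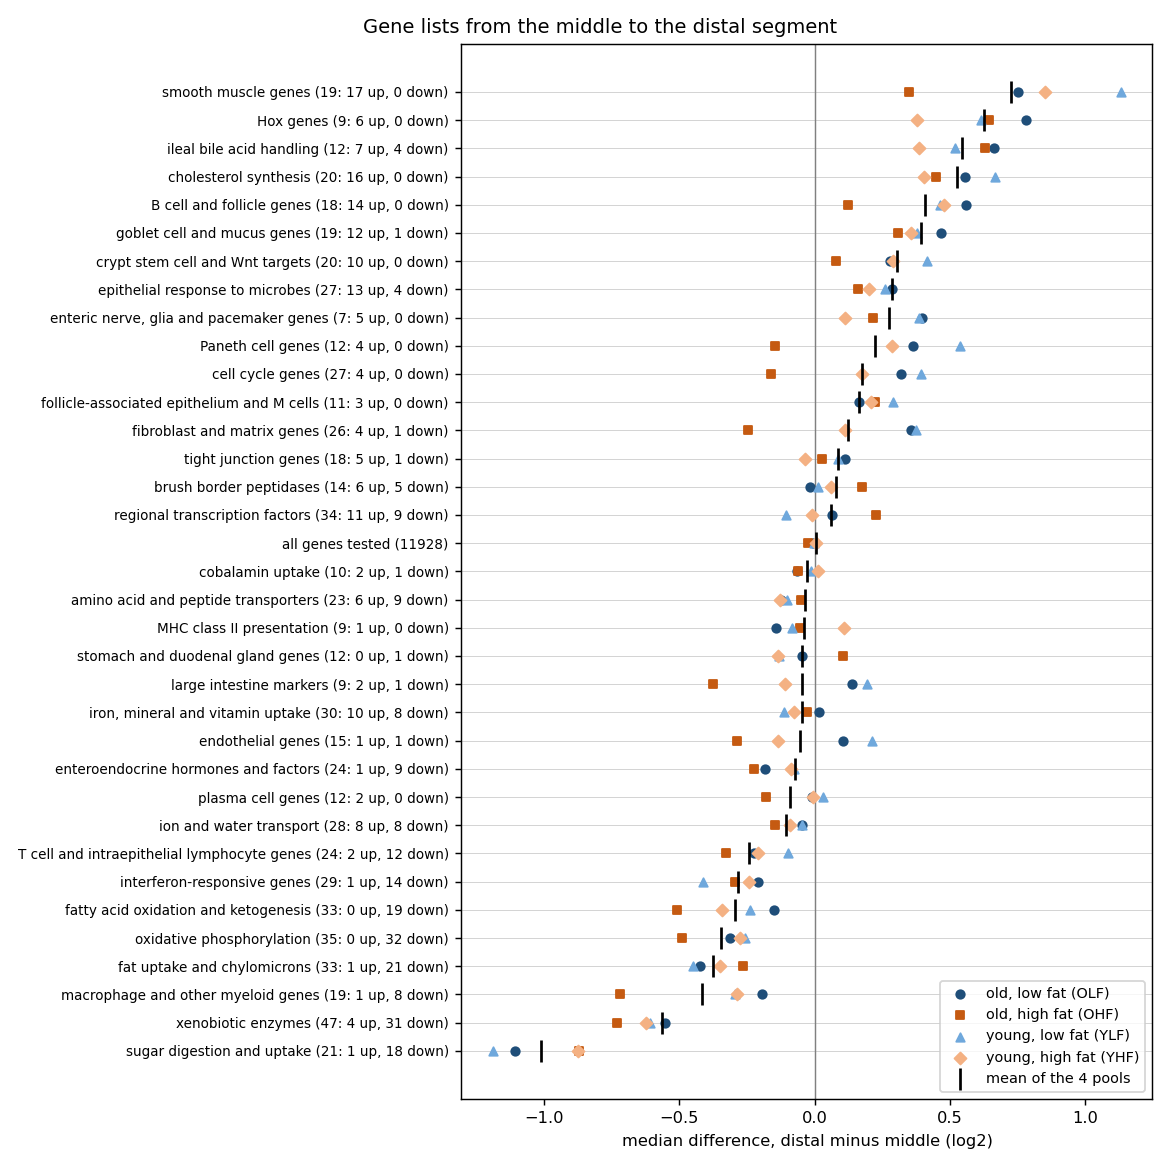
Median step of each gene list with 7 or more genes tested (x axis, log2, distal minus middle) for each pool (coloured symbols) and for the mean of the 4 pools (black bars), with the number of genes tested and the numbers that rose and fell at an adjusted p under 0.05 beside the name. The set of all genes lies at 0.01, smooth muscle genes are highest and sugar digestion and uptake lowest, and the OHF symbols lie left of the others for smooth muscle, B cell, Paneth, cell cycle and fibroblast genes.

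Where the border lay was compared between the pools with genes chosen on the other 3 pools, those over 2-fold apart on their mean, and measured in the pool left out. With 1 array per pool and segment no test was possible, and the genes of a pool are not replicates. For each gene the step in the pool left out was taken as a percentage of its mean in the other 3. The median of these percentages over the higher genes was 112%, 89.4%, 105% and 72.5% in OLF, OHF, YLF and YHF. Of the 96 genes for YHF, 87 had a smaller step there than in the others. The YHF middle array lay above the mean of the other middle arrays in 87 of the 96 genes. The median shift was 0.33, while that of the distal array was −0.05. Genes were chosen by a large step in the same 3 pools that served as the reference. That choice favours a low middle level there, so a smaller step in the pool left out can come from the choice alone. Its part in these values was not tested. For the lower genes the medians were 96.7%, 93.6%, 105% and 84.5%, and 145 of 189 genes had a smaller step in YHF.

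On a scale where the proximal array of the same pool is 0% and the distal array 100%, the middle array stood for the higher genes at 24.3%, 30.5%, 23.1% and 42.3% (76 to 94 genes). For the lower genes it stood at 28.2%, 21.6%, 30.2% and 30.4%. The pool of young mice on the high-fat diet had the middle array nearest to the distal one for genes that rise, and no pool stood out to that degree for genes that fall. Slc10a2 stood at 16.9%, 25.1%, 22.9% and 65.3%, Fabp6 at 48.3%, 35.2%, 48.9% and 76.6%, Suox at 9.25%, 8.04%, 3.53% and 42.6%, and Duox2 at 38.3%, 26.9%, 55.4% and 73.4%. Fgf15 did not follow, with 61.9%, 21.2%, 39.6% and 27.9%. Among the 15 largest rises, which overlap with the genes chosen above, YHF had the highest middle array in 12 and the smallest step in 13. The 15 largest falls were spread, with the highest middle array in OHF for 6 and the smallest step in OLF for 9 and YHF for 5.

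**Figure D3:**
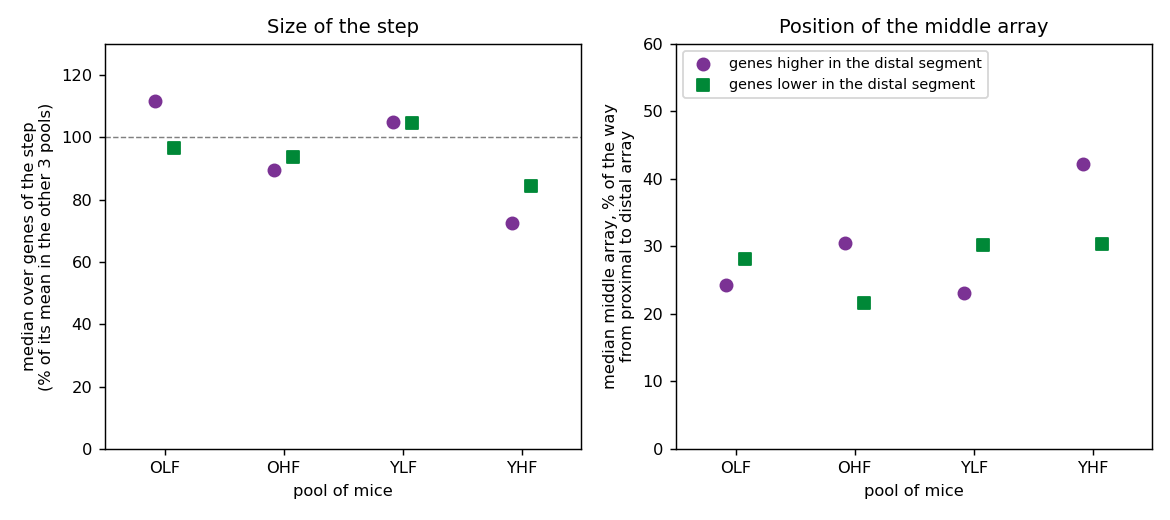
Left, median over genes of the step in a pool as a percentage of the mean step of the same gene in the other 3 pools (y axis, dashed line at 100%). Right, median position of the middle array between the proximal (0%) and the distal array (100%) of the same pool, with the 4 pools on both x axes, circles for genes higher and squares for genes lower in the distal segment and no error bars, since each pool has 1 array per segment. YHF has the lowest median, 72.5%, and the highest position, 42.3%, for the genes higher in the distal segment.

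The number of genes over 2-fold apart was also counted within each pool, with no test. Rises above 2-fold numbered 111 (0.931%), 117 (0.981%), 140 (1.17%) and 68 (0.57%) in OLF, OHF, YLF and YHF. Falls above 2-fold numbered 193 (1.62%), 268 (2.25%), 218 (1.83%) and 142 (1.19%). YHF was lowest in both directions and OHF highest among the lower genes.

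Whether the step differed with age was tested as an interaction in limma with the 4 pools, in which 1 residual degree of freedom is left. Car1 was the gene called (0.00838% of the genes tested), at 1375 genes with an unadjusted p under 0.05. Car1 measured 4.93, 4.41, 4.38 and 4.47 on the middle arrays and 10.45, 7.05, 7.87 and 5.55 on the distal arrays. The middle arrays were near the low level of the proximal ones, and the distal arrays were spread over a wide range, with OLF highest and YHF lowest. Its step was 3.18 ± 0.61 on average (adjusted p = 0.0099), larger in old than in young mice by 1.80 (adjusted p = 0.0168) and lower on the high-fat diet, by −2.65 ± 0.15 (adjusted p = 0.000203). All proximal and middle arrays of Car1 and its YHF distal array were under the intensity of 50. It therefore passed the filter through the distal arrays where it was high, and the calls and sizes of these differences are not firm. With all 12 arrays, or without the pool as a block, no gene was called for age, at 1241 and 1346 genes with an unadjusted p under 0.05. Of 9 large intestine markers tested, 2 rose, Car1 among them, and 1 fell, against 11.1% and 15.6% of all genes, and 1 rose when OLF, YLF or YHF was left out. Aqp8, a colonic water channel, had a step of −0.55 ± 0.37 (adjusted p = 0.297), with 0.68 in OLF and −1.97 in OHF. The erythrocyte list also holds Car1, which was the member called of the 2 tested there.

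The step differed with the diet in 52 genes (0.436% of those tested). The residual of this fit is the disagreement between old and young mice, so the direction being shared by both ages is part of the call. The middle segment carried the larger diet difference in 35 of them and the distal segment in 17, and in 44 the step was more negative on the high-fat diet. The number called was 11 without the pool as a block, 3 with all 12 arrays and 289 with an intensity trend and robust variance. On simulated arrays this fit also called genes that had not been changed.

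Bco1, which cleaves beta-carotene to retinal, had the largest difference. It measured 9.10, 5.60, 10.49 and 5.82 on the middle arrays and 6.48, 6.27, 6.75 and 6.46 on the distal arrays. With little fat in the diet its level therefore dropped toward the distal arrays, and on the high-fat diet it was slightly higher there, with a difference of the step of 3.85 ± 0.23 (adjusted p = 0.000203). Mbl2, a mannose-binding lectin, had the same order, with 9.54, 6.56, 9.29 and 6.19 on the middle arrays and 6.70, 5.90, 6.50 and 5.57 on the distal arrays (2.18 ± 0.13), and its mean step of −1.73 (adjusted p = 0.0228) was not called without OLF or YLF.

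Cyp4a10, a fatty acid omega-hydroxylase, measured 5.50, 8.55, 5.12 and 7.52 on the middle arrays and 5.14, 6.00, 5.08 and 5.05 on the distal arrays, a difference of −2.30 ± 0.13. Its low-fat middle and distal arrays were all under the intensity of 50, so the small step on that diet is not firm. On the high-fat diet it fell steeply, to under that intensity in YHF. The size of its diet difference is therefore not firm. Cyp4a31, a relative of Cyp4a10, measured 3.86, 6.45, 2.60 and 5.27 on the middle arrays and 2.81, 3.73, 2.86 and 3.60 on the distal arrays (−1.80 ± 0.13). Of these arrays the OHF middle array alone was over the intensity of 50, so the call and size of this difference are not firm. Me1, the malic enzyme that supplies NADPH, measured 7.20, 10.37, 7.71 and 10.06 on the middle arrays and 8.06, 9.07, 8.60 and 8.52 on the distal arrays, so its step changed sign between the diets (−2.30 ± 0.14).

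Ugt2b5, a glucuronosyltransferase, and Ces1f, a carboxylesterase, changed sign as well. Ugt2b5 measured 6.16, 8.25, 5.91 and 7.77 on the middle arrays and 6.53, 6.26, 6.83 and 6.88 on the distal arrays (−2.09 ± 0.16). Ces1f measured 8.53, 10.41, 7.92 and 10.04 on the middle arrays and 9.24, 9.36, 9.05 and 9.42 on the distal arrays (−1.76 ± 0.13). In these genes the high-fat pools stood well above the low-fat pools in the middle segment and near them in the distal one.

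Car1 and Pla2g4c differed between the diets mainly in the distal segment, and Saa1 in both segments. Pla2g4c, a cytosolic phospholipase, measured 4.46, 4.48, 4.89 and 4.95 on the middle arrays and 8.02, 5.32, 7.08 and 5.53 on the distal arrays, and both low-fat pools were high there (−2.17 ± 0.23, adjusted p = 0.00829). Pla2g4c was over the intensity of 50 on the low-fat distal arrays alone. It therefore passed the filter through the arrays where it was high, and the call and size of this difference are not firm. Its mean step, 1.79 ± 0.45, was not called without YLF (adjusted p = 0.0791). The step of Saa1 differed by −1.69 ± 0.25 (adjusted p = 0.0387), and its high-fat minus low-fat difference was 0.75 on the middle arrays and −0.94 on the distal ones. All middle arrays of Saa1 and the distal arrays of the old pools were under the intensity of 50. It passed the filter through the distal arrays of the young pools, and these differences are not firm. The lists of fatty acid oxidation, xenobiotic enzymes and microbial response held 4 each of the 52 genes, fibroblast and matrix genes 3 (Dpt, Sparcl1 and Bmp4, with differences of −1.27, −1.10 and −0.93) and smooth muscle genes 1 (Myl9, −0.82), and sugar digestion, cholesterol synthesis and bile acid handling held none in limma, at 10, 5 and 5 genes with an unadjusted p under 0.05. Of 26 fibroblast and matrix genes tested, 19 had an unadjusted p under 0.05 for diet, and the part of stromal RNA in the diet differences was not tested.

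**Figure D4:**
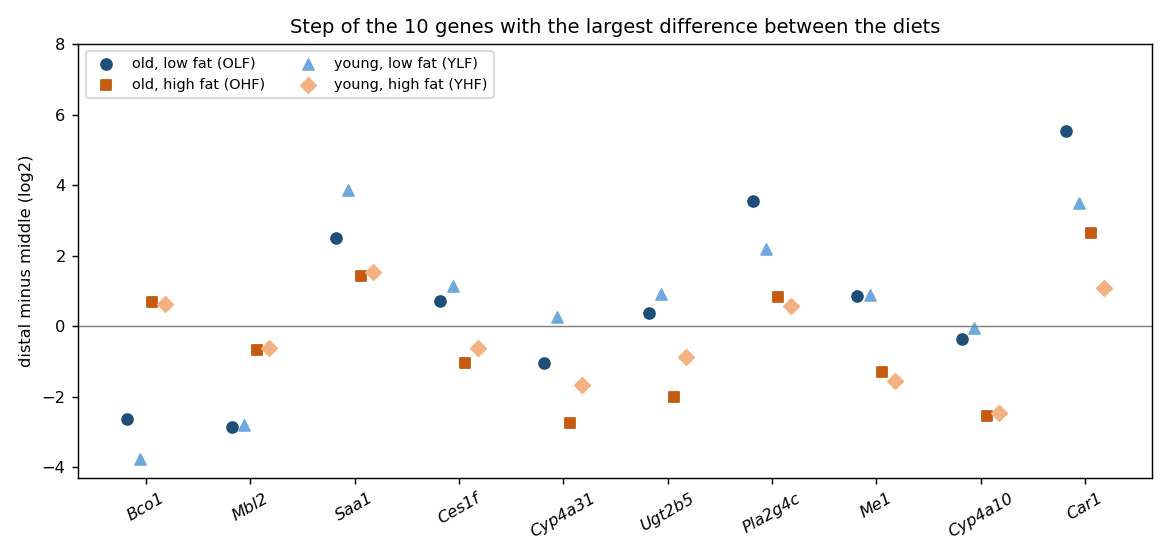
Step from the middle to the distal array (y axis, log2) in each of the 4 pools for the 10 genes whose step differed most between the diets (x axis), each symbol being 1 pair of arrays. The low-fat symbols of Bco1 lie at −2.62 and −3.75 and the high-fat ones just above 0, and for Me1 the low-fat symbols lie above and the high-fat ones below 0.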

How the data were processed

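Per the labels and the study's methods, RNA of scrapings of mucosa and submucosa was pooled over 6 or 8 mice and hybridised to Affymetrix Mouse Gene ST arrays. The authors made the deposited log2 values with Robust Multi-array Average (RMA), whose version is not given in the sources used here. RMA subtracts background, gives all arrays the same distribution and summarises each transcript cluster, so that values on the arrays are relative to each other and no absolute amount of RNA is measured. Array medians lay between 5.57 and 5.70. Each value rests on 1 array, so precision is limited by how many arrays there are.

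Of 35556 probe sets, 21789 carried 1 gene symbol, 1621 several and 12146 none, and those with several or none were left out. For each of 19938 genes, 999 of which had several probe sets, the one with the highest mean over the 12 arrays was used. The filter, an intensity above 50 on any 1 of the arrays, left 11948 genes, from which 20 acinar genes of the pancreas were removed. The study also removed genes specific to the pancreas, but the list used here was drawn up separately. The difference between the segments was fitted over the 8 arrays in limma (version 3.58.1, R 4.3.3) with the pool as a block, and its interaction with age and diet in a second fit, with Benjamini-Hochberg adjustment. The middle and distal array of a pool hold RNA of the same mice, which pairs them. The deviations of the 2 arrays of a pool correlated at r = 0.374, 0.103, 0.208 and 0.306 in OLF, OHF, YLF and YHF. The highest correlation of the middle array with the distal array of another pool was 0.0345, 0.180, 0.061 and 0.00943. In OHF the 2 arrays of the pool were therefore not the closest. Deviations were taken from the mean of the arrays of a segment, so these correlations are not independent of each other. Pools are not separate mice, so p-values measure the spread between pools of different age and diet.

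Genes named are the 15 largest rises and 15 largest falls with 1 sign in all pools, the 4 members with the largest difference in each of 36 lists, the 10 largest interactions, the 10 genes with the most unequal steps, and further members needed to account for a list. The comparison, the genes and the lists were chosen with earlier results of these data known. The fits were tested on simulated data: the fit of the step recovered the changed genes with few false calls, and the interaction fit, with 1 residual degree of freedom, gave more false calls than its adjusted p allows in some draws. The simulated noise was independent between genes, so a step shared by many genes of 1 pool was not simulated. The rate of false calls on the measured arrays is therefore not known from it. Alternatives were another filter, probe set rule, scaling, variance model and block, all 12 arrays, and each pool left out. Upstream sequences are from RefSeq on GRCm38.p6, the build of that table, and were matched by symbol.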

Additional observations from a re-analysis of the deposited data

Results flagged for a closer look

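Among 35 genes shown array by array, 70 groups of 4 arrays were examined for an array far from the other 3 by Dixon's criterion, which chance alone meets in about 1 of 20 groups, and 4 groups met it. They were Suox in the middle segment, where YHF measured 7.77, Cldn2 in the middle segment, where YHF measured 7.16, Car1 in the middle segment, where OLF measured 4.93, and Cyp4a10 in the distal segment, where OHF measured 6.00. All middle arrays of Car1 and the other distal arrays of Cyp4a10 were under the intensity of 50.

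The step of Car1 was larger in old than in young mice by 1.80, and on the high-fat minus the low-fat diet it differed by −2.65, by a test of the difference itself. By the same test the diets differed in the step of Bco1 by 3.85, of Mbl2 by 2.18, of Cyp4a10 by −2.30, of Me1 by −2.30, of Pla2g4c by −2.17, of Ugt2b5 by −2.09, of Cyp4a31 by −1.80, of Ces1f by −1.76 and of Saa1 by −1.69.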

How the results depend on the processing

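Over the 161 named genes, 2147 of 2248 comparisons of the step with an alternative kept direction and call, 82 lost the call, 19 gained it and none reversed. The number of genes higher and lower was 1264 and 1760 without the pool as a replicate block, 42 and 87 when a 2-fold difference in every pool was asked instead of a p, and 517 to 1786 and 941 to 2063 with 1 pool left out. Without the block, 10 of the named genes were not called (B3gnt7, Ccna2, Cldn5, Emcn, Gzmb, Ifit1, Mbl2, Mmp7, Npy and Pla2g2a), and with it as a random term 4 of these (Ifit1, Mbl2, Mmp7 and Pla2g2a). For age, 2 genes were called with no intensity filter, 23 with an intensity trend and robust variance, 0 without the block (1346 at an unadjusted p under 0.05, limma) and 0 with all 12 arrays (1241). For diet, 289 genes were called with trend and robust variance, 11 without the block and 3 with all 12 arrays. Car1, Cyp4a10, Me1, Pla2g4c and Saa1 lost the diet call both without the block and with 12 arrays, Mbl2, Cyp4a31 and Ces1f with 12 arrays, and Bco1 and Ugt2b5 kept it in the alternatives run. The cause of these changes was not tested. Leaving out a pool was not run for age and diet, since no residual degrees of freedom remain.

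For genes over 4-fold apart, the median over the lower genes of the step as a percentage of its mean in the other pools was 84.1% in OLF and 103% in OHF. The middle array then stood for the higher genes at 21.2% in OHF, 39.2% in YLF and 52.1% in YHF, and for the lower genes at 23.2% in YLF and 26.2% in YHF. On the linear intensity scale it stood at 12.8%, 17.6%, 12.4% and 24.9% for the higher and 42.3%, 33.7%, 46.9% and 44.4% for the lower genes in OLF, OHF, YLF and YHF. As a mean over the lower genes it stood at 23.6% in OLF and 27.1% in OHF. YHF had the highest position of the higher genes in each of these.

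Counts of list members with 1 pool left out were chosen after seeing the data. With 1 array per pool and segment, the spread between mice and a difference of 1 pool from the others were not tested.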

Other observations

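Among the 10 genes whose step was most unequal over the pools, 2 belong to no comparison above. Igkv4-91, an immunoglobulin light chain segment, measured 7.63, 7.86, 4.92 and 5.76 on the middle and 7.51, 5.18, 5.25 and 5.52 on the distal arrays of OLF, OHF, YLF and YHF, so that OHF was high on its middle array and not on its distal one. The transcript 2210010C04Rik measured 4.62, 4.22, 6.90 and 4.46 on the middle and 4.53, 4.80, 4.56 and 4.68 on the distal arrays, with the YLF middle array above the rest, and 12.27 to 13.26 on the proximal arrays, and it was not on the list of acinar genes removed.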
